A study of Bos taurus with 12 samples.

Results

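miR-21 was examined through both strands of its hairpin, bta-miR-21-5p and bta-miR-21-3p, the 2 rows of the small RNA count files whose mature names carry these labels, out of 755 mature bovine names, of which 473 had a read in any library. Each name was matched to 1 precursor entry. The libraries came from granulosa cells, the steroid-producing cells that line the ovarian follicle, in estrous-synchronized Simmental heifers slaughtered early in the luteal phase, at day 3 or at day 7 of the cycle. The 4 groups were subordinate follicles (SF) at day 3, dominant follicles (DF) at day 3, SF at day 7 and DF at day 7, with 3 libraries labelled as biological replicates in each. All heifers had received a prostaglandin analogue and a GnRH analogue, and different heifers gave the follicles of each day.

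Several features of the groups limit them as models. The follicles were classed by diameter, with larger limits at day 7 than at day 3, and cells were pooled by follicle size. At day 7 the methods list many subordinate follicles and no more dominant follicles than there were DF libraries. The labels do not tie a library to a heifer, so the p-values measure the spread between these libraries, which may share animals. In bulk RNA, moreover, fewer cells of one type and less RNA per cell cannot be told apart.

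A microRNA hairpin is cut into a duplex, and as a rule one strand (here 5p, the guide) is retained in Argonaute while the other (here 3p, the passenger or star strand) is mostly degraded. miR-21 is known as a miRNA that promotes cell survival, and in mouse granulosa cells it is known to respond to the luteinizing hormone surge and to restrain apoptosis. Genes were ordered by start position in the RefSeq annotation of ARS-UCD2.0, a later build than that of the count files. In this order MIR21 comes between VMP1, whose product acts in autophagy, and TUBD1, which encodes delta tubulin. Gene ends were not compared, so an overlap with a neighbour was not examined.

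The files held between 160418 and 405129 miRNA reads per library (median 297448.5), so that 3 reads corresponded to 0.000741% to 0.00187% of a library. Levels are given as raw reads and as normalized counts, that is reads divided by a median-of-ratios size factor of the library. Both arms were read in all 12 libraries. bta-miR-202, a miRNA enriched in gonads, was present in every library.

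miR-21 was lowest in DF at day 3, intermediate in SF at both days and highest in DF at day 7, in both arms. The raw reads of bta-miR-21-5p were 892, 1189 and 833 (replicates 1 to 3) for DF at day 3, 2870, 1844 and 1992 for SF of that day, 2476, 7716 and 4886 in SF at day 7, and 43258, 17931 and 48079 in DF at day 7. After normalization the level was 737 ± 72.4 in DF at day 3, 2491 ± 63.0 in SF at day 3, 4924 ± 2803 in SF at day 7 and 36696 ± 6726 in DF at day 7 (mean ± SD, n = 3). All DF libraries of day 7 stood above every other library, and all DF libraries of day 3 stood below every other library.

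The 3p arm followed the same order at a much lower level. Its raw reads were 12, 19 and 18 for DF at day 3, 52, 48 and 46 for SF of that day, 59, 221 and 160 in SF at day 7, and 1409, 649 and 1625 in DF at day 7. The normalized level was 12.7 ± 4.40, 55.7 ± 9.14, 144 ± 86.1 and 1249 ± 195 in the same order of groups (mean ± SD, n = 3). The lowest SF library of day 7, replicate 1 with 52.6 normalized counts, lay within the range of SF at day 3, and otherwise the groups did not overlap.

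As a share of all miRNA reads, bta-miR-21-5p took 0.302% ± 0.0512 of DF libraries at day 3, 0.942% ± 0.0336 of SF at day 3, 1.68% ± 0.962 of SF at day 7 and 13.3% ± 1.88 of DF at day 7 (SD, n = 3). By mean share it ranked 43, 19, 12 and 2 among the miRNA names in these groups. In DF at day 7 it was preceded only by bta-miR-26a, at 16.1% ± 0.817 (SD, n = 3). The 3p arm rose in rank from 164 in DF at day 3 to 36 in DF at day 7, where it took 0.453% ± 0.0468 of the reads.

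**Figure D1:**
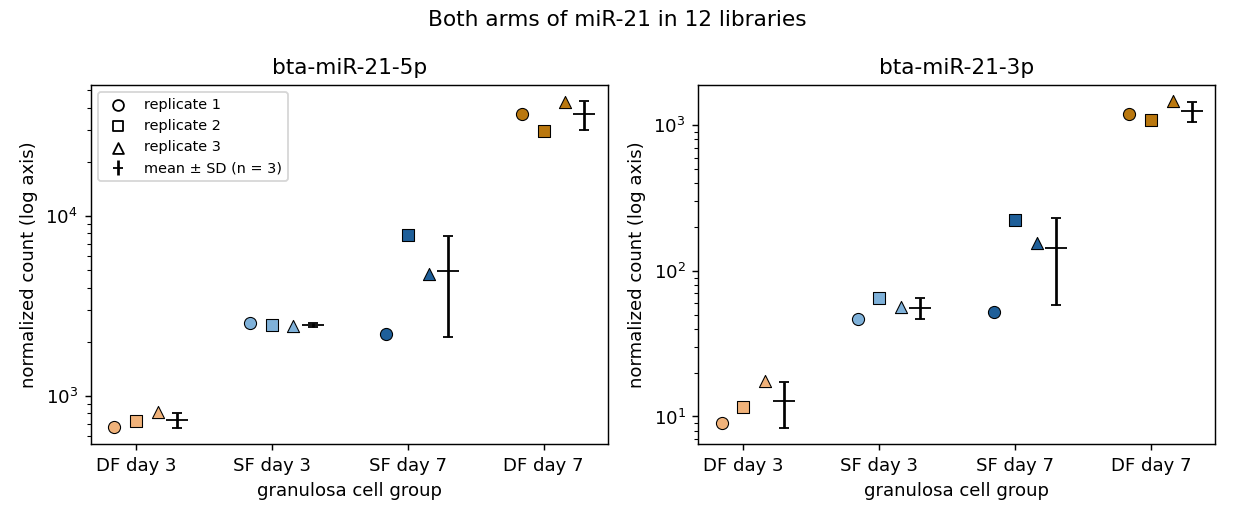
Normalized counts of bta-miR-21-5p (left) and bta-miR-21-3p (right) on log axes in the 12 libraries, grouped by follicle class and day. Symbols are replicates and the bars to their right are mean ± SD (n = 3); DF at day 7 lies above, and DF at day 3 below, all other libraries, and SF at day 7 is the most scattered group.

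The first comparison asked how subordinate and dominant follicles differed at day 3. The normalized counts of bta-miR-21-5p were 2558, 2483 and 2433 in SF against 670, 727 and 814 in DF, with no overlap. The 5p arm was 3.27-fold higher in SF, a log2 fold change of 1.71 ± 0.13 (SE; adjusted p = 2.41e-10, edgeR quasi-likelihood test). The 3p arm, at 46.4, 64.6 and 56.2 normalized counts in SF and 9.02, 11.6 and 17.6 in DF, was 4.28-fold higher in SF (log2 fold change 2.10 ± 0.29, adjusted p = 1.40e-05). A miRNA was called where its log2 fold change was at least 1 in size, p at most 0.05 and FDR at most 10%. Under this rule 19 of 335 miRNAs tested were called at day 3 (5.67%), both arms of miR-21 among them. bta-miR-21-5p had the lowest p of all miRNAs tested, although it ranked 38 by the size of its fold change.

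At day 7 the difference pointed the other way. The 5p arm was at 2206, 7805 and 4761 normalized counts in SF and at 36995, 29826 and 43268 in DF, again with no overlap. It was 7.02-fold lower in SF, with a log2 fold change of -2.81 ± 0.41 (adjusted p = 0.000507). The 3p arm was at 52.6, 224 and 156 normalized counts in SF and at 1205, 1080 and 1462 in DF, and was 8.20-fold lower in SF (log2 fold change -3.04 ± 0.45, adjusted p = 0.000615). In this comparison 117 of 350 miRNAs were called (33.4%), so a call was far less selective than at day 3, and the arms ranked 31 and 34 by p.

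In DF between the days, miR-21 showed its largest differences among the 4 comparisons of the study. The normalized counts given above correspond to a 49.1-fold higher 5p level at day 7 (log2 fold change 5.62 ± 0.22, adjusted p = 2.47e-10) and a 97.7-fold higher 3p level (log2 fold change 6.61 ± 0.30, adjusted p = 9.12e-10). The arms ranked 1 and 2 by p among 360 miRNAs tested, and 10 and 7 by the size of the change. Of these miRNAs, 145 were called (40.3%).

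In SF, neither arm passed the thresholds between the days. Replicate 2 of day 7 was the highest SF library in both arms, whereas replicate 1 of day 7 had fewer normalized 5p counts than any SF library of day 3. The log2 fold change was 1.01 ± 0.31 for 5p (95% normal interval 0.39 to 1.62, adjusted p = 0.151, edgeR) and 1.39 ± 0.41 for 3p (0.58 to 2.20, adjusted p = 0.150, edgeR). Only 2 of 337 miRNAs were called in this comparison (0.593%), and 37 had an unadjusted p under 0.05. The values rested on single libraries. Without replicate 1 of SF at day 7 both arms were called, at 1.34 and 1.78, and without replicate 2 of that group they were at 0.46 and 0.87 and were not called.

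The scatter of miR-21 in SF at day 7 was unusual among miRNAs. The SD of the log2 normalized count over the 3 libraries was 0.92 for 5p and 1.09 for 3p, and of 171 miRNAs reaching 10 reads in each of these libraries, 8 had a larger SD than 5p and 4 a larger SD than 3p (median 0.28). In SF at day 3 the 5p arm was instead among the steadiest, with an SD of 0.04 against a median of 0.20 over 161 miRNAs, 156 of which had a larger SD. In DF at day 7 the SD was 0.27 for 5p and 0.22 for 3p against a median of 0.30. In DF at day 3 it was 0.14 for 5p and 0.49 for 3p against a median of 0.20, and 16 of 175 miRNAs had a larger SD than 3p, whose reads numbered 12 to 19.

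For the full order of levels, the remaining pairs of groups, which differ in follicle class and day together, were also tested. SF at day 7 exceeded DF at day 3, with a log2 fold change of 2.72 ± 0.39 for 5p (adjusted p = 0.00447) and 3.48 ± 0.53 for 3p (adjusted p = 0.00521), where 6.12% of the miRNAs tested were called. DF at day 7 exceeded SF at day 3 by 3.83 ± 0.17 for 5p (adjusted p = 4.02e-08) and 4.45 ± 0.24 for 3p (adjusted p = 1.24e-07), where 34.1% were called. Thus, of the neighbours in the order DF at day 3, SF at day 3, SF at day 7 and DF at day 7, the SF groups were the only pair not separated by the test. These 6 comparisons share libraries and are not independent of each other.

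The change of direction itself was tested as an interaction over all 12 libraries. The SF to DF difference at day 7 minus that at day 3 was -4.66 ± 0.44 on the log2 scale for 5p (adjusted p = 1.11e-06) and -5.26 ± 0.57 for 3p (adjusted p = 2.81e-06). Of 378 miRNAs tested, 100 were called for this term (26.5%), and the arms ranked 3 and 9 by p.

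**Figure D2:**
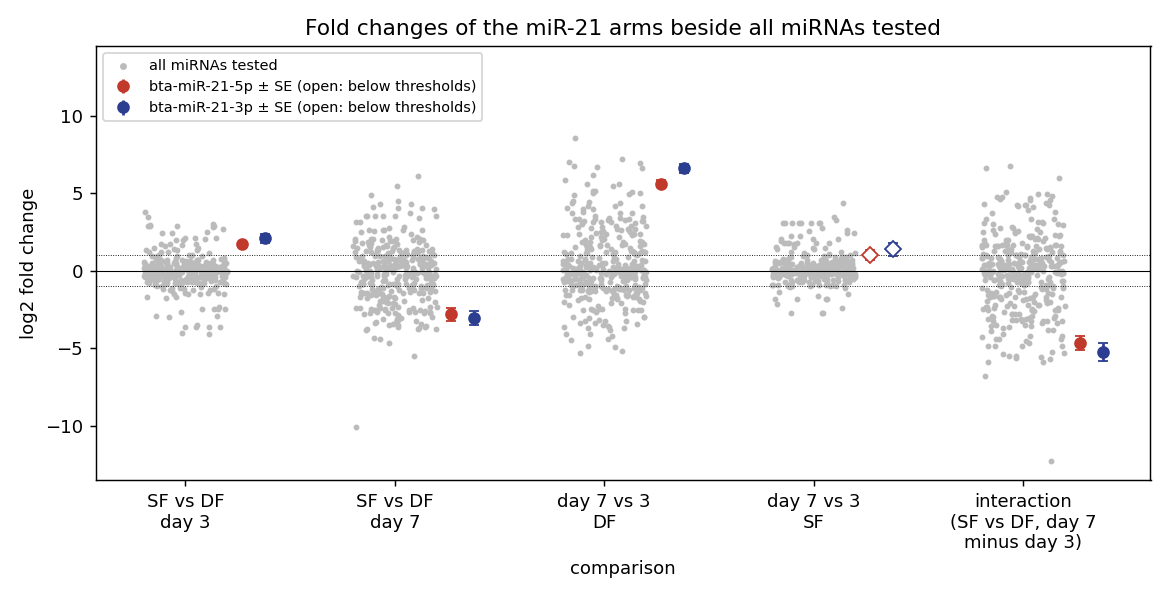
Log2 fold change of bta-miR-21-5p (red) and bta-miR-21-3p (blue) ± SE in the 4 comparisons and for the interaction, beside all miRNAs tested (grey, spread sideways at random); dotted lines mark a log2 fold change of 1 in either direction. Both arms are above 0 at day 3, below 0 at day 7 and near the top in DF between days, and the open symbols for SF between days did not pass the thresholds.

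The ratio of the arms was then compared, since the fold change of 3p was larger than that of 5p in all 4 comparisons. The reads of 5p per read of 3p were 74.3, 62.6 and 46.3 for DF at day 3, 55.2, 38.4 and 43.3 for SF of that day, 42.0, 34.9 and 30.5 in SF at day 7, and 30.7, 27.6 and 29.6 in DF at day 7. The mean ratio therefore ran in the opposite order to the level, from 61.1 ± 14.1 in DF at day 3 through 45.6 ± 8.63 in SF at day 3 and 35.8 ± 5.77 in SF at day 7 to 29.3 ± 1.56 in DF at day 7 (SD, n = 3). Neighbouring groups in this order overlapped, whereas DF at day 3 and DF at day 7 did not.

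The precision of a ratio was set by the 3p reads. In DF at day 3, replicate 1 had 12 reads of 3p, and the exact 95% binomial interval of its ratio ran from 42.3 to 144. In DF at day 7, replicate 3 had 1625 such reads and an interval from 28.2 to 31.1. The intervals cover counting error only, because reads without molecular identifiers are not independent molecules. Ligation and gel selection can recover the arms unequally, so that the ratio is one of reads, and it was tested only between groups.

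In DF the ratio fell by 1.01 ± 0.23 on the log2 scale between day 3 and day 7 (adjusted p = 0.000274 over 12 hairpins, edgeR test of arm by group), where the guide strand rose 49.1-fold and the passenger strand 97.7-fold. The exact two-sided permutation test over these libraries gave p = 0.1, the smallest that 3 against 3 libraries allow (0.2 after adjustment over 4 comparisons). A lower ratio between days was not particular to miR-21, since 8 of the 12 hairpins with enough reads on both arms were called (66.7%), 6 of them with a lower ratio (50% of the 12). In SF the ratio was lower at day 7 by a log2 difference of -0.40 ± 0.18 (adjusted p = 0.0855, edgeR), within the FDR of 10%, where 33.3% of hairpins were called. This call was lost under 4 of 5 other settings and in 7 of 12 fits without a library, and the libraries overlapped (exact permutation p = 0.2). The difference between the changes in DF and SF did not pass, at 0.61 ± 0.30 on the log2 scale (adjusted p = 0.158, edgeR).

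Between follicle classes the ratio was not called. The log2 difference of SF from DF was -0.37 ± 0.27 at day 3 (adjusted p = 0.371, edgeR), where 8.33% of hairpins were called, and 0.23 ± 0.13 at day 7 (adjusted p = 0.130, edgeR), where 41.7% were called. Same-numbered SF and DF libraries correlated at day 7 and not at day 3, and no label ties a number to an animal. The replicate block of this fit was shared by the libraries of both days, so it was not a paired test of day 7. With it the day 7 difference was 0.26 and fell within the FDR of 10% (adjusted p = 0.0870, edgeR). The exact permutation test gave p = 0.2 at either day.

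Set beside the other hairpins tested, miR-21 was read mostly as 5p. Over all libraries its ratio was 31.0, with 109268 of the 5p reads from DF at day 7. The 31.0 was the fourth highest 5p to 3p ratio of the 12, which is not a rank of guide bias. Ratios ran from 0.00222 for mir-22, whose 3p strand is the dominant one, to 347 for let-7a-1. The 5p reads of let-7a-1 may also derive from other let-7a precursors. Hairpins with few reads on the lower arm, such as mir-142 at 878, were not among the 12. Between days in DF the hairpins called with the largest changes other than miR-21 were mir-99a at -1.64, mir-424 at -1.49 and mir-17, of the proliferation-linked miR-17-92 cluster, at -1.40 on the log2 scale of the ratio. Of the 3 hairpins closest to miR-21 in total reads, mir-151 was called at -0.29 and mir-22 at 1.00, while let-7a-1 was at 0.26 and was not called. For SF against DF at day 7 the largest were mir-17 at 1.92, mir-2483 at -1.66 and mir-99a at 1.11, and at day 3 mir-6119, at -0.95, was the one hairpin called. In SF between days mir-99a (-1.21), mir-423 (-0.35) and mir-151 (-0.31) were called with miR-21. For the interaction 16.7% of hairpins were called, namely mir-17 (1.82) and mir-423 (-0.88).

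**Figure D3:**
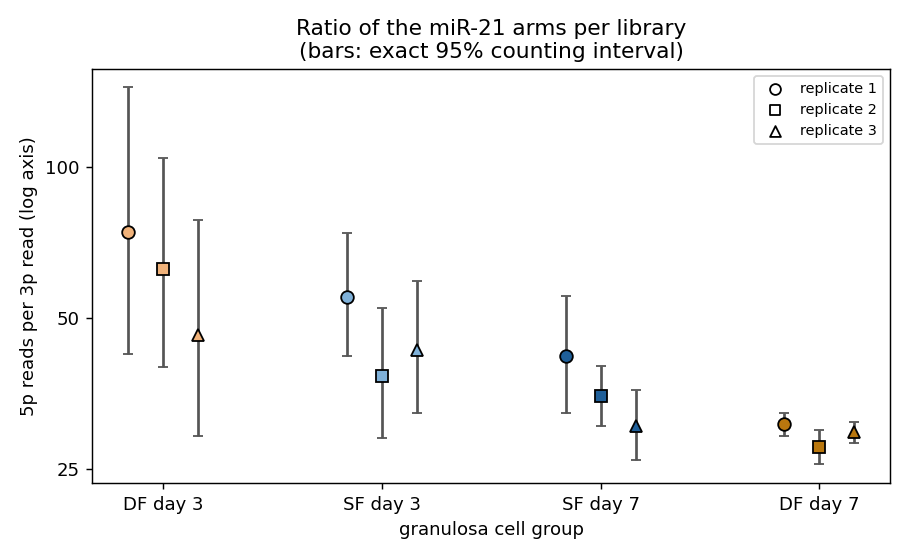
Reads of bta-miR-21-5p per read of bta-miR-21-3p (log axis) in each library, with exact 95% binomial counting intervals as bars. The ratio runs from 46.3 to 74.3 in DF at day 3 and from 27.6 to 30.7 in DF at day 7, with the SF libraries between 30.5 and 55.2.

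The miRNAs whose profile over the 12 libraries was most like that of miR-21 were found by the root mean square difference of log2 normalized counts, each centred on its own mean, among 186 miRNAs that reached 10 reads in 6 or more libraries. The arms were each other's nearest neighbour, at 0.42. bta-miR-21-5p was followed by bta-miR-193b at 0.57, bta-miR-708 at 0.57, bta-miR-222 at 0.68 and bta-miR-221 at 0.70, against a median of 2.15. bta-miR-21-3p was followed by bta-miR-155 at 0.45, bta-miR-222 at 0.49, bta-miR-221 at 0.59 and bta-miR-708 at 0.64, against a median of 2.50. All had their lowest mean in DF at day 3 and their highest in DF at day 7. They were picked for likeness over these same libraries, so this shared order follows largely from the choice.

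Within DF at day 7, however, the libraries were ordered differently. bta-miR-155, known from activated lymphocytes and macrophages, was at 3565, 5215 and 2937 normalized counts in replicates 1 to 3, and bta-miR-221, which is known to repress the cell cycle inhibitor p27, at 1846, 3074 and 1245. Replicate 2 was thus the highest for these miRNAs and for bta-miR-193b, bta-miR-222 and bta-miR-708, whereas it was the lowest of the group for both arms of miR-21. Within SF at day 7, replicate 1 was the lowest and replicate 2 the highest for all 7 miRNAs, an order that the choice by likeness also favoured.

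**Figure D4:**
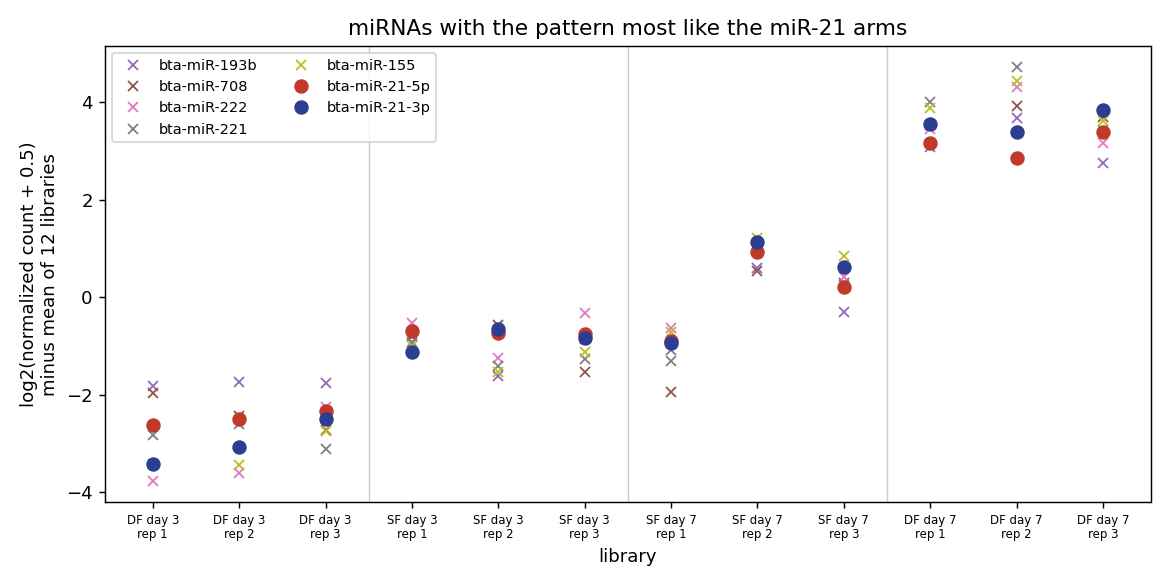
Log2 normalized counts (pseudocount 0.5), centred on the mean of 12 libraries, of both miR-21 arms (circles) and the 5 other miRNAs nearest to either arm (crosses), by library. All rise from DF at day 3 to DF at day 7, and in SF at day 7 replicate 1 is below replicates 2 and 3 for each of them. The 5 were chosen for likeness over these libraries, which favours such a shared pattern.

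A list of 7 miRNAs known to be induced by growth factor, gonadotropin or inflammatory signals (bta-miR-155, bta-miR-221, bta-miR-222, bta-miR-146a, bta-miR-146b, bta-miR-132 and bta-miR-212) was described beside miR-21. The list was chosen with earlier results of these data known. The paper already reported bta-miR-155, bta-miR-221 and bta-miR-222 as changing direction together with both miR-21 arms. The counts of calls below are therefore description and not independent support for a shared response. At day 3, 4 of the 7 were higher in SF and none lower, with a list median log2 fold change of 1.62 against -0.04 over all miRNAs tested, and 3.88% of all miRNAs were called higher. They were bta-miR-222 at 2.53 ± 0.39 (adjusted p = 5.42e-05), bta-miR-212 at 2.41 ± 0.78 (adjusted p = 0.0437), bta-miR-155 at 1.96 ± 0.24 (adjusted p = 2.21e-06) and bta-miR-221 at 1.62 ± 0.27 (adjusted p = 0.000103). The call of bta-miR-212, at 6.02 ± 1.13 normalized counts in SF (SD, n = 3), was lost with DESeq2 (adjusted p = 0.166), with the replicate block and without replicate 1 or 3 of SF at day 3 (adjusted p up to 0.109, edgeR), which left 3 of the 7 called, and its log2 fold change was 1.45 with a prior count of 2.

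At day 7, 5 of the 7 were lower in SF than in DF and none higher (list median -2.56 against -0.05), where 18.3% of all miRNAs were called lower. The count was 4 without replicate 1 or 3 of SF at day 7 or replicate 2 of DF at day 7. In these fits bta-miR-146a lost its call (adjusted p up to 0.163, edgeR). bta-miR-221 was at -3.80 ± 0.58 and bta-miR-155 at -3.30 ± 0.47 on the log2 scale, beside -2.81 for bta-miR-21-5p. bta-miR-132 and bta-miR-212, processed from a shared cluster that responds to CREB signalling, were not called, at -0.79 ± 0.39 and 0.66 ± 0.71.

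In DF, 6 of the 7 rose between day 3 and day 7 (list median 4.20 against 0.05), where 24.4% of all miRNAs were called higher, and bta-miR-212 did not pass at 1.73 ± 0.91. The largest rise in the list was that of bta-miR-155, at 7.23 ± 0.34, from 26.1 ± 7.85 to 3906 ± 1176 normalized counts (SD, n = 3). In SF between days bta-miR-155 alone was called, at 1.89 ± 0.37 (adjusted p = 0.0377), where 0.297% of all miRNAs were called higher. This count rested on single libraries, being 5 without replicate 1 of SF at day 7, 2 without replicate 3 of SF at day 3, and 0 without replicate 2 of SF at day 7 or without replicate 1 or 2 of SF at day 3, where the adjusted p of bta-miR-155 reached 0.274. It was also 0 when at least 10 reads in at least 3 libraries were required. With DESeq2 or with the replicate block the count was 2, and without a filter on low counts it was 3. For the interaction 6 of the 7 were called with the sign of miR-21, where 14.3% of all miRNAs were called lower.

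Markers of other cell types moved together with miR-21 in some libraries. The summed normalized counts of 4 leukocyte miRNAs (bta-miR-142-5p, bta-miR-142-3p, bta-miR-150 and bta-miR-223) ranged from 108 to 220 in SF at day 3, 116 to 162 in DF at day 3, 184 to 705 in SF at day 7 and 783 to 8636 in DF at day 7. All 4 were called higher in DF at day 7 than at day 3, where 24.4% of all miRNAs were called higher. In DF at day 7 bta-miR-142-5p was at 3374 ± 3166 normalized counts and bta-miR-150 at 792 ± 868 (SD, n = 3). The others stayed near the floor there, bta-miR-142-3p at 3.94 ± 2.89 and bta-miR-223 at 5.98 ± 2.05 (SD, n = 3). At day 3 bta-miR-142-5p was at 134 ± 53.8 normalized counts in SF and 107 ± 18.2 in DF and bta-miR-150 at 28.0 ± 13.6 and 27.4 ± 12.1 (SD, n = 3), both above 0 in every library, and bta-miR-142-3p was at 0 in all libraries of that day. The summed counts of 5 miRNAs of theca, stroma and smooth muscle (bta-miR-143, bta-miR-145, bta-miR-199a-3p, bta-miR-199a-5p and bta-miR-214) ranged from 4116 to 5378, 2448 to 4194, 3222 to 5326 and 8525 to 16576 in the same groups. All 5 were called higher in DF at day 7 than at day 3, beside the same 24.4% of all miRNAs. bta-miR-202 moved the other way, from 3130 to 3673 normalized counts in DF at day 3 to 364 to 976 in DF at day 7.

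Within DF at day 7 the leukocyte sum was 3110, 8636 and 783 in replicates 1 to 3, beside 36995, 29826 and 43268 for bta-miR-21-5p. Without replicate 2 of DF at day 7 the 5p change between days was 5.74. That value does not bear on leukocytes, as replicates 1 and 3 also exceeded the leukocyte sums of DF at day 3 (116 to 162). The theca, stroma and smooth muscle sum was 11950, 8525 and 16576 in replicates 1 to 3 of DF at day 7, which is the order of bta-miR-21-5p. The gonad miRNA bta-miR-202 had that order too, at 753, 364 and 976. In SF at day 7 replicate 2, the library highest in both arms, was also the highest for the leukocyte sum (705) and for the theca, stroma and smooth muscle sum (5326), and replicate 1 was the lowest for both (184 and 3222). The endothelial sum was likewise highest in replicate 2 (221) and lowest in replicate 1 (90.9). Most of the theca, stroma and smooth muscle sum was bta-miR-143, at 3777 ± 955 in SF at day 7. In that group bta-miR-199a-5p was at 151 ± 14.3 and bta-miR-214 at 21.4 ± 0.88 (SD, n = 3). The part of leukocytes, of theca, stroma and smooth muscle cells or of endothelial cells in the miR-21 levels was not tested.

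The 3 erythrocyte miRNAs summed to 315 to 1642 normalized counts in SF at day 3, 737 to 1087 in DF at day 3, 438 to 515 in SF at day 7 and 808 to 2322 in DF at day 7. None was called in DF between days. At day 7 the 2 tested, bta-miR-451 (-1.76 ± 0.37) and bta-miR-486 (-1.56 ± 0.37), were called lower in SF than in DF, where 18.3% of all miRNAs were called lower. For the interaction bta-miR-451 was called (-1.82 ± 0.61) and bta-miR-486 was not (-1.44 ± 0.66), where 14.3% of all miRNAs were called lower. The 2 endothelial miRNAs summed to 103 to 131 in SF at day 3, 61.6 to 101 in DF at day 3, 90.9 to 221 in SF at day 7 and 130 to 160 in DF at day 7. Of the 2, 1 was called higher in DF at day 7 than at day 3, where 24.4% of all miRNAs were called higher.

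**Figure D5:**
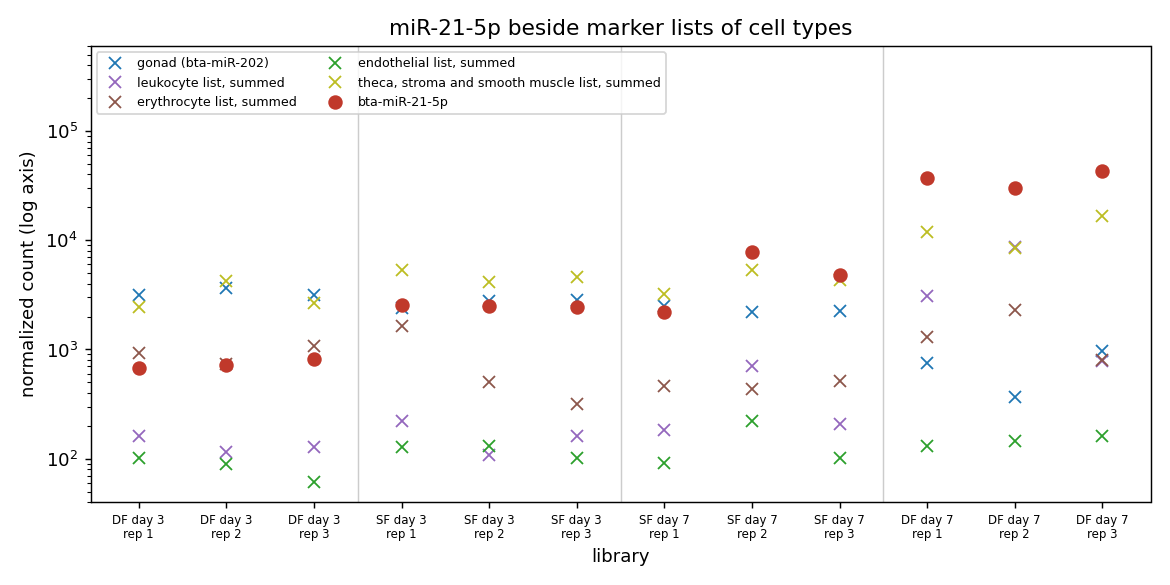
Normalized counts (log axis) of bta-miR-21-5p (circles) and of bta-miR-202 and 4 summed marker lists (crosses) in the 12 libraries. In DF at day 7 the leukocyte sum runs from 783 to 8636 while bta-miR-21-5p stays between 29826 and 43268.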

How the data were processed

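Small RNA libraries of 12 granulosa cell samples were prepared with the TruSeq small RNA protocol. Per the labels and the methods, the authors called bases with CASAVA 1.8.0, checked reads with FastQC, trimmed them with cutadapt and aligned them to the UMD 3.1 genome with miRDeep2. The deposited files hold raw read counts per mature and precursor pair (906 entries in each), without normalization and without molecular identifiers.

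Where a mature name had several entries, that with the highest total was used. Size factors were medians of ratios. Comparisons were fitted with edgeR 4.0.16 (R 4.3.3) by the quasi-likelihood test on 6 libraries, for miRNAs read at least 1 time in 2 or more of the 3 replicates of either group, and the interaction on 12. p-values were adjusted by Benjamini-Hochberg over all miRNAs tested. SE was the log2 fold change divided by the root of F. The arm ratio was tested by edgeR on library by arm counts of the 12 hairpins (of 73 with both arms) with a mean of at least 5 reads on the lower arm, and by the two-sided exact permutation test of scipy 1.17.1. Scripts were tested on simulated data. DESeq2 1.42.0 and limma 3.58.1 were used for alternatives.

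Replicate numbers did not pair libraries except in SF against DF at day 7, where deviations of same-numbered libraries correlated at 0.24, 0.28 and 0.23 over 140 miRNAs. This pairing comes from the data, as the labels tie no number to an animal. No replicates were near-duplicates. Named were both arms, the 5 miRNAs nearest to each arm, the list of 7, and for the ratio up to 3 other called hairpins with the largest change and the 3 closest in reads. The members and lists were chosen with earlier results of these data known. miRNA sequences and seed families were not used here.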

Additional observations from a re-analysis of the deposited data

Results flagged for a closer look

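The difference between SF and DF changed sign from day 3 to day 7 in both arms of miR-21, and the test of that change, an interaction over 12 libraries, passed for both. It was -4.66 on the log2 scale for bta-miR-21-5p (adjusted p = 1.11e-06, edgeR) and -5.26 for bta-miR-21-3p (adjusted p = 2.81e-06, edgeR). At day 3 all 3 SF libraries were above all 3 DF libraries in both arms, and at day 7 all 3 were below, among 26.5% of miRNAs called for this term.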

How the results depend on the processing

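Both arms kept their direction and their call at day 3, at day 7, in DF between days, in both mixed pairs of groups and for the interaction, under all alternatives of tool, scaling, filter, prior count and replicate block and without each library in turn. The 5p value ranged without single libraries from 1.65 to 1.79 at day 3, from -3.33 to -2.44 at day 7 and from 5.49 to 5.74 in DF. In SF between days the arms became significant with DESeq2 (5p 1.01, adjusted p = 0.0981; 3p 1.39, adjusted p = 0.0583) and without a filter on low counts (1.01 and 1.39), and 3p with the replicate block (1.19). Without single libraries 5p ranged from 0.46 to 1.34 and 3p from 0.87 to 1.78. The cause was not tested.

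The count of miRNAs called at day 3 (19) was 11 with DESeq2, 12 with at least 10 reads in at least 3 libraries, 8 with all 12 libraries in one fit, and 10 to 21 without single libraries, where 10 was without replicate 1 of SF. In DF between days (145) it was 92 with the stricter filter, which tests fewer miRNAs. In SF between days (2) it was 5 with DESeq2, 12 without a filter, 0 with the stricter filter, 7 with the replicate block, 1 in the joint fit and 0 to 20 without single libraries. bta-miR-212 in SF between days turned from -0.12 to 0.030 without replicate 3 of day 3, neither value being called.

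The fall of the arm ratio in DF stayed called throughout (-1.18 to -0.88 without single libraries). In SF between days it was not called with limma on the log2 ratio (-0.34 with a pseudocount of 0.5, -0.33 with 1), with at least 1 read on the lower arm (-0.40) or with the replicate block (-0.36), and ranged from -0.51 to -0.24 without single libraries. The day 7 difference passed with at least 20 reads on the lower arm (0.23), with the block (0.26) and without replicate 3 of SF at day 7 (0.33, adjusted p = 0.0587), and ranged from 0.16 to 0.33 without single libraries. The interaction of the ratio passed with at least 20 reads (0.61), without replicate 1 of SF at day 3 (0.77, adjusted p = 0.0682) and without replicate 3 of SF at day 7 (0.70, adjusted p = 0.0936), and ranged from 0.49 to 0.78 without single libraries. Beyond those given, the replicate block changed no call of either arm. Depth limited the 3p arm in DF at day 3, with 12 to 19 reads.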
